A study of Mus musculus with 4 samples.

Results

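Foxp3 and 7 other genes that define regulatory T cells (Treg cells) were followed across 4 sorted populations of mouse CD4 T cells. The other genes were Ikzf4, Ikzf2, Il2ra, Ctla4, Lrrc32, Nrp1 and Gpr83. They were taken by name and found by symbol among the array probes (transcript clusters) that carry exactly 1 gene in the platform annotation. All 8 of 8 genes were found, each with 1 probe, out of 22180 genes measured in this way. Mice were immunized with NP-OVA, a hapten coupled to ovalbumin, in CFA (complete Freund's adjuvant), and cells were sorted on day 7. Follicular regulatory T cells (TFR cells) were sorted as CD4+ cells that carried PD1, CXCR5 and YFP, a fluorescent reporter of Foxp3. The other Treg cells (non-TFR cells) were sorted as CD4+ YFP+ cells without CXCR5, whatever their PD1 level as far as the labels say. Both populations came from FoxP3YFP-Cre mice (WT, called control here) and from Prdm1fl/flFoxP3YFP-Cre mice (KO, called knockout here). Every group therefore carried the Foxp3-driven YFP and Cre allele. The knockout mice in addition carried floxed Prdm1 alleles, which Cre can delete in cells that express or have expressed Foxp3. Each of the 4 groups was measured on 1 Affymetrix Mouse Gene 2.0 ST array, so no value below has a replicate error and no difference has a test. The sources used here do not give the age or sex of the mice, nor how many mice were pooled for an array.

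Foxp3 is the transcription factor that specifies Treg cells and holds their gene expression programme in place. It works with members of the Ikaros zinc finger family, among them Eos, encoded by Ikzf4, and Helios, encoded by Ikzf2. Treg cells depend on interleukin-2, which they bind through the high-affinity receptor chain CD25 (Il2ra), and they restrain other T cells partly through the inhibitory receptor CTLA-4 (Ctla4) and through latent TGF-beta held on the cell surface by GARP (Lrrc32). Neuropilin-1 (Nrp1) is a semaphorin and VEGF co-receptor abundant on Treg cells that arise in the thymus, and Gpr83 is a G protein-coupled receptor enriched in Treg cells. TFR cells are the Treg cells of the B cell follicle, where they limit germinal centre reactions. Prdm1 encodes Blimp-1, a transcriptional repressor of effector lymphocytes that is also active in effector Treg cells.

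The targeted gene and the sort genes were examined first. Prdm1 had a normalized log2 level of 8.21 (control) and 7.32 (knockout) in TFR cells and 7.80 (control) and 7.59 (knockout) in non-TFR cells, so it was lower in both knockout arrays, by more in the TFR pair. Whether its probe lies in the deleted part of the gene is not given in the sources used here. Cxcr5 was at 9.52 in control TFR and 10.39 in knockout TFR cells, and Pdcd1, which encodes PD1, was at 9.86 and 10.68. Thus the genes of the TFR gate were themselves higher in the knockout TFR array. They were also higher in the knockout non-TFR array, with Cxcr5 at 8.06 (control) and 8.90 (knockout) and Pdcd1 at 7.44 (control) and 8.96 (knockout). The part of both genes in the differences between the TFR arrays, between the non-TFR arrays and in the difference of these differences was not tested. Of 8 measured T cell markers, all 8 lay above the median of all genes (5.91 on the log2 scale, the limit for calling a gene expressed) in every array, with a summed linear signal of 41823 to 43189. No myeloid marker of 8, and 1 of 6 B cell markers by its mean over the arrays (Cd79b, at 8.08 to 8.42), lay above that limit. The summed signal of the B cell markers was 427 to 506. That of the CD8 and NK cell markers (2 of 6 above the limit by their mean, Cd8b1 and Eomes) was 673 to 902. That of the plasma cell markers (1 of 4 by its mean, Xbp1) was 966 to 1084. In single arrays Sdc1, a plasma cell marker, was also above the limit in control (6.07) and knockout (6.38) TFR cells. The B cell marker Pax5 (6.10) and the NK cell marker Klrb1c (6.12) were above it in the knockout TFR array only. The 3 measured markers of conventional CD4 T cells summed to 1649 (control) and 1439 (knockout) in TFR cells and 1348 (control) and 1814 (knockout) in non-TFR cells, a sum carried by Cd226 (9.90 in the knockout TFR array, the lowest of the 4). Cd40lg, by contrast, was highest in the knockout TFR array, at 8.71 (control) and 8.86 (knockout) in TFR cells and 7.78 (control) and 8.19 (knockout) in non-TFR cells. Il2 lay below the limit in every array. The part of conventional T cells in the results was not tested. Each array is a mixture of many cells, in which fewer cells of a type and less RNA per cell cannot be told apart.

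All 8 Treg identity genes were above the expression limit in all 4 arrays, so the defining markers of the labelled cell type were present in each. Their summed linear signal was 19295 (control) and 14379 (knockout) in TFR cells and 19751 (control) and 20593 (knockout) in non-TFR cells. The knockout TFR array thus had the lowest sum, whereas its summed T cell marker signal (43189) was the highest of the 4. The knockout TFR array was also the lowest of the 4 for 6 of the 8 genes, against 26.4% of the 11090 expressed genes. With values as deposited or centred on T cell markers it was the lowest for 5, because the very close levels of Ctla4 changed places.

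**Figure D1:**
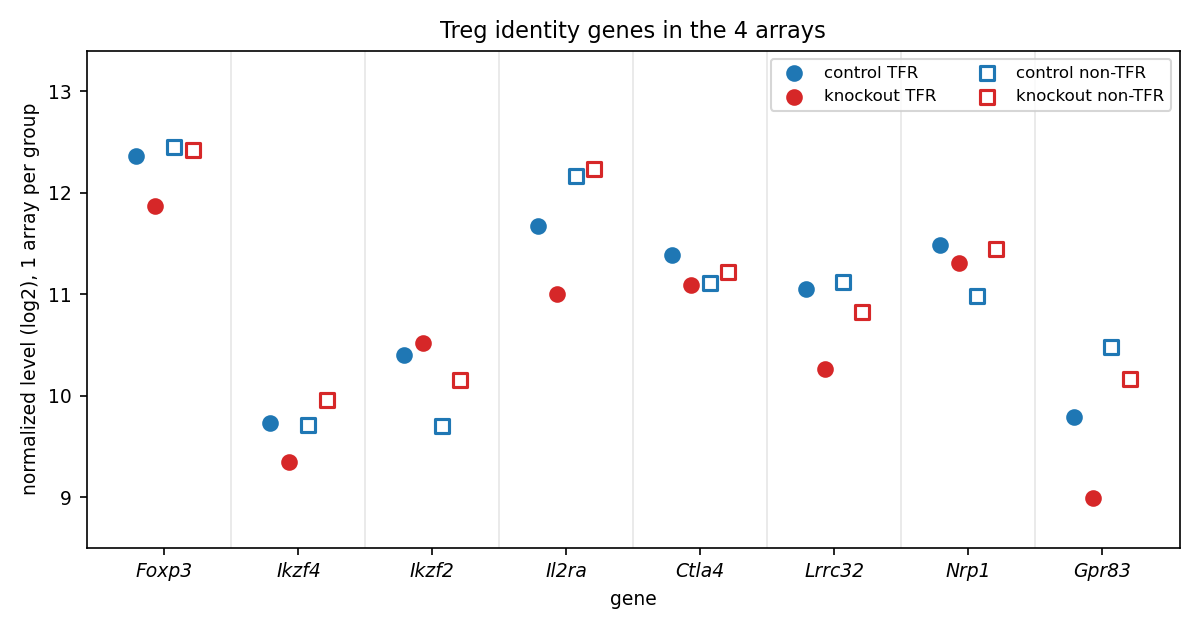
Normalized log2 level (vertical axis) of the 8 Treg identity genes (horizontal axis) in the 4 groups, with 1 array per group, circles for TFR and squares for non-TFR cells, blue for control and red for knockout. The red circle, knockout TFR, is the lowest point for Foxp3 (11.87), Ikzf4 (9.35), Il2ra (11.00), Ctla4 (11.10, by 0.013), Lrrc32 (10.27) and Gpr83 (8.99), and the highest for Ikzf2 (10.52).

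Among the transcription factors, Foxp3 had levels of 12.36 (control) and 11.87 (knockout) in TFR cells and 12.45 (control) and 12.42 (knockout) in non-TFR cells. The knockout TFR array stood 0.49 below the next array, while the other 3 arrays lay within 0.086 of each other. Since YFP under Foxp3 was a gate for all 4 sorts, the presence of Foxp3 is no finding. Ikzf4, whose product Eos acts as a co-repressor with Foxp3, was at 9.73 (control) and 9.35 (knockout) in TFR cells and 9.72 (control) and 9.96 (knockout) in non-TFR cells. The control arrays were 0.013 apart, and the knockout arrays lay on opposite sides of them. Ikzf2, which encodes Helios, was at 10.40 (control) and 10.52 (knockout) in TFR cells and 9.70 (control) and 10.15 (knockout) in non-TFR cells. Both TFR arrays were higher than both non-TFR arrays for this gene, and of the 8 genes only Ikzf2 had its highest level in knockout TFR cells.

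The interleukin-2 receptor chain Il2ra was at 11.67 (control) and 11.00 (knockout) in TFR cells and 12.17 (control) and 12.24 (knockout) in non-TFR cells. Both non-TFR arrays were higher than both TFR arrays, and the levels spanned 1.23 (2.35-fold). Ctla4 varied least of the 8 genes, with levels of 11.39 (control) and 11.10 (knockout) in TFR cells and 11.11 (control) and 11.22 (knockout) in non-TFR cells, a span of 0.29 (1.23-fold). Its control TFR array was the highest, and the order of the other arrays rested on gaps of 0.11 and 0.013. Lrrc32, the cell surface anchor of latent TGF-beta, was at 11.05 (control) and 10.27 (knockout) in TFR cells and 11.12 (control) and 10.83 (knockout) in non-TFR cells. Both knockout arrays were lower than both control arrays for Lrrc32, and of the 8 genes it was the only one with that arrangement.

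Nrp1 was at 11.49 (control) and 11.31 (knockout) in TFR cells and 10.98 (control) and 11.44 (knockout) in non-TFR cells. Here the control non-TFR array was the low one, 0.32 below the next, and the other 3 lay within 0.18 of each other. Gpr83 had the widest span of the 8 genes, 1.49 on the log2 scale (2.81-fold), with levels of 9.79 (control) and 8.99 (knockout) in TFR cells and 10.48 (control) and 10.17 (knockout) in non-TFR cells. Within each genotype Gpr83 was lower in TFR cells, and within each population it was lower in the knockout. Without replicate arrays, no neighbours in any of these orders are shown to differ beyond their spread.

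The regions around the transcription starts are shown for Il2ra and Gpr83, the genes with the widest spans. They are also shown for Nrp1 and for the second start of Foxp3, whose windows hold a searched motif. RefSeq windows (build GRCm38.p6, from 250 bases before to 50 bases after a start) were found for 5 of the 8 genes, with 2 starts for Foxp3 and 6 windows in all. Each window is on the + strand and written 5′ to 3′, with motif matches in capitals. They are Foxp3 (second start) at chrX:7580233-7580532, Nrp1 at chr8:128358823-128359122, Il2ra at chr2:11642542-11642841 and Gpr83 at chr9:14859960-14860259.
Foxp3: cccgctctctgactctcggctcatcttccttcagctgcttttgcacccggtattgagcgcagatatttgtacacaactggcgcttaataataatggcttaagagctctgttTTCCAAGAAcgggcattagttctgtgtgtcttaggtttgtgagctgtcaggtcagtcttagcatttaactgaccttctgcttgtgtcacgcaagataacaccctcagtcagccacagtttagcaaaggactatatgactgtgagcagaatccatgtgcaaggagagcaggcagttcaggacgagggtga
Nrp1: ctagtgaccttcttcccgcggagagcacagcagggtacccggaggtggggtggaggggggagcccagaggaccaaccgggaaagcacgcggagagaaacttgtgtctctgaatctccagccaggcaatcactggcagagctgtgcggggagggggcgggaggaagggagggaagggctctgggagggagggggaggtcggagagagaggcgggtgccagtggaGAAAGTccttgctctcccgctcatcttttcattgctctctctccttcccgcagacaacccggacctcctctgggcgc
Il2ra: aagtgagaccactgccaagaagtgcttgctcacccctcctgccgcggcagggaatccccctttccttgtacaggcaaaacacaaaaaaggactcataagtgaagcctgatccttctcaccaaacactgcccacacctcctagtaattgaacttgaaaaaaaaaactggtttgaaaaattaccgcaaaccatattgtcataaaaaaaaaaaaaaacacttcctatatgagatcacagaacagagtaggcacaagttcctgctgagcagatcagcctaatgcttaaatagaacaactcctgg
Gpr83: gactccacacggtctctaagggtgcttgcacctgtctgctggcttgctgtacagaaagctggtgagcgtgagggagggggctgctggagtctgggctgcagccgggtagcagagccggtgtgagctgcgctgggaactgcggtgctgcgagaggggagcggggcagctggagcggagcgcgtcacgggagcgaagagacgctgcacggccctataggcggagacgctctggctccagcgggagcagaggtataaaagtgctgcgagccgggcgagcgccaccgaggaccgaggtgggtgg
Both strands were searched for GAAAGT, a core of Blimp-1 binding sites, TTCNNNGAA, the palindrome bound by STAT factors, GTAAACA, a forkhead core, and TGTGGT, a RUNX core. The window of the second Foxp3 start held TTCCAAGAA, which begins 139 bases before that start. The window of the first Foxp3 start, not printed, held no match to a searched motif. Of all 32851 RefSeq windows of 300 bases, 8.3% held a STAT palindrome. The Nrp1 window held GAAAGT, which begins 27 bases before the start, a sequence found in 14.3% of all windows. The forkhead core (3.65% of all windows) and the RUNX core (16.8%) had no match in the 6 windows. A match describes the letters in the window and does not show binding.

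The comparison of knockout with control TFR cells asked how the identity genes differ with the Prdm1 genotype inside the follicular population. Of the 8 genes, 7 were lower in the knockout and Ikzf2 was 0.12 higher, against 46.1% of expressed genes that were lower. The median difference was -0.44 on the log2 scale, and that of all 11090 expressed genes was 0.020. None of the 8 genes was at least 2-fold lower or higher, against 0.234% and 0.442% of expressed genes. At 1.5-fold, none was higher, against 2.16%, and 3 were lower, against 1.56%. These were Gpr83 with -0.80 (1.74-fold), Lrrc32 with -0.78 (1.72-fold) and Il2ra with -0.67 (1.59-fold). They lay below the middle 95% of expressed genes, which ran from -0.50 to 0.56. Foxp3 itself differed by -0.49 (1.41-fold lower), just inside that range, and 291 of 11090 expressed genes ranked as low or lower. Smaller differences were those of Ikzf4 (-0.38), Ctla4 (-0.29, 1.23-fold) and Nrp1 (-0.18). Relative to Foxp3, Gpr83 was lower by a further -0.31, Lrrc32 by -0.29 and Il2ra by -0.18, while Ikzf2 stood 0.61 and Nrp1 0.31 above it. The measured differences in the TFR pair thus ran from -0.80 to 0.12, and without replicates their spread around a common amount was not tested.

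In non-TFR cells the same genotype comparison gave small differences of both signs. Of the 8 genes, 3 were lower in the knockout, against 44.2% of expressed genes, and the median difference was 0.092, against 0.030 for expressed genes. None was 1.5-fold higher or lower, against 3.69% and 1.09% of expressed genes, or 2-fold (0.775% and 0.126%). Nrp1 (0.46) and Ikzf2 (0.46) were the highest, both 1.37-fold higher in the knockout. Gpr83 (-0.31, 1.24-fold) and Lrrc32 (-0.30, 1.23-fold) were the lowest. These last are the genes with the lowest values in the TFR pair as well. The TFR and non-TFR pairs share no array, but both compare the same genotypes, and how mice were pooled is not given. Foxp3 differed by -0.025, and with centring on the 75th percentile or on T cell markers this turned to 0.013 and 0.018. Il2ra differed by 0.072, Ctla4 by 0.11 and Ikzf4 by 0.24.

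**Figure D2:**
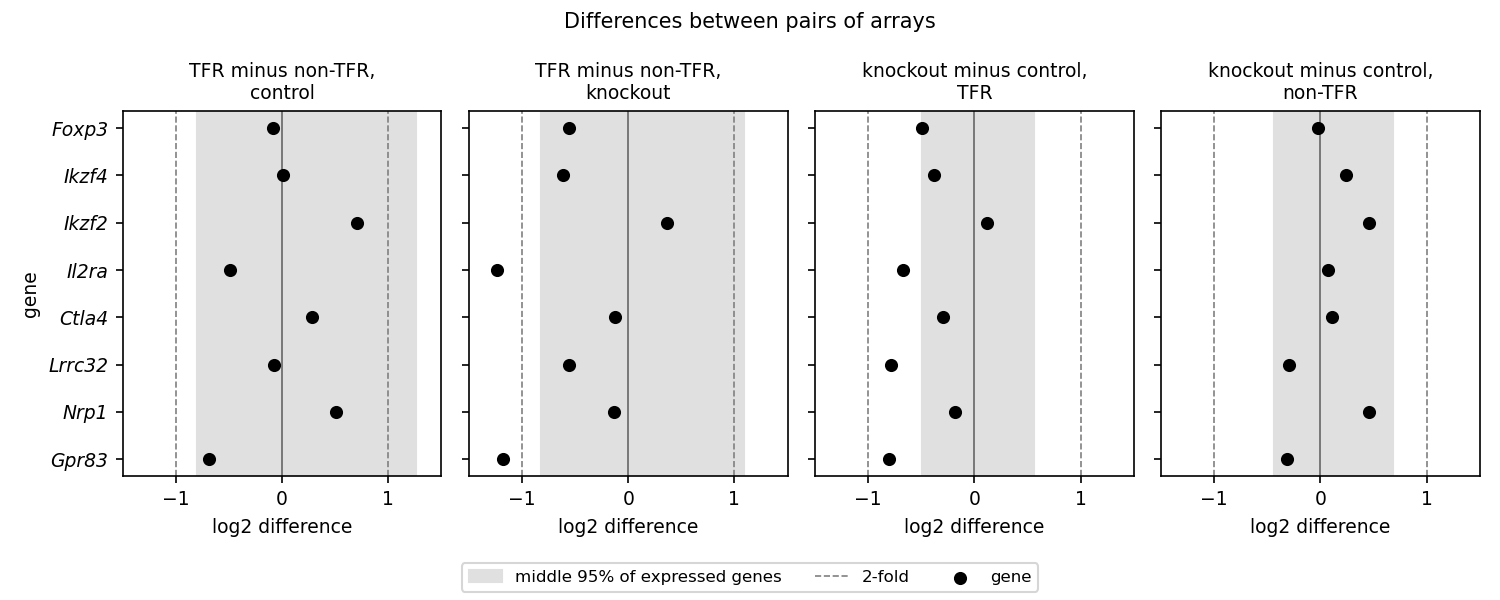
Log2 difference (horizontal axis) of the 8 Treg identity genes (vertical axis) in the 4 comparisons, each between 1 array and 1 other, with the middle 95% of the 11090 expressed genes in grey and 2-fold limits as dashed lines. In knockout minus control TFR cells 7 points lie below 0 and Gpr83 (-0.80), Lrrc32 (-0.78) and Il2ra (-0.67) lie left of the grey band, whereas all 8 points lie inside it in non-TFR cells.

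The comparison of TFR with non-TFR cells of control mice asked whether follicular Treg cells carry the identity genes at the level of other Treg cells. The 8 genes were evenly divided, with 4 higher and 4 lower in TFR cells (47.5% of expressed genes were lower). Their median difference was -0.031, against 0.021 for expressed genes, and it turned to 0.073 with values as deposited and to 0.060 with centring on T cell markers. None was 2-fold higher or lower, against 4.13% and 1.36% of expressed genes. At 1.5-fold, 1 gene was higher (10.3% of expressed genes were) and 1 was lower (5.76%). Ikzf2 was the higher one at 0.70 (1.63-fold), followed by Nrp1 at 0.51 (1.42-fold) and Ctla4 at 0.28. Gpr83 was the lower one at -0.69 (1.61-fold), followed by Il2ra at -0.49 (1.41-fold). Foxp3 (-0.086), Lrrc32 (-0.076) and Ikzf4 (0.013) were nearly level between the control populations. A count of 1 in 8 does not stand apart from these shares of all expressed genes.

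In knockout mice 7 of the 8 genes were lower in TFR cells than in non-TFR cells, against 48.4% of expressed genes. The median difference was -0.56, against 0.014 for expressed genes. Il2ra (-1.23, 2.35-fold) and Gpr83 (-1.18, 2.26-fold) were at least 2-fold lower, which 1.37% of expressed genes were. Ikzf4 followed at -0.61 (1.53-fold), which made 3 genes at least 1.5-fold lower, against 6.2% of expressed genes. Lrrc32 (-0.56) and Foxp3 (-0.55) were 1.48-fold and 1.47-fold lower. Nrp1 (-0.13) and Ctla4 (-0.12, 1.09-fold) were close to level, and Ikzf2 was 0.37 higher (1.29-fold). None was at least 1.5-fold higher, against 8.54% of expressed genes, or 2-fold higher, against 3.03%. This comparison shares the knockout TFR array with the genotype comparison in TFR cells, so low levels on that array enter both.

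The genotype difference in TFR cells minus that in non-TFR cells uses all 4 arrays and was below 0 for all 8 genes, against 52.4% of expressed genes. The values ran from -0.74 for Il2ra to -0.33 for Ikzf2, with a median of -0.49, and all 8 stayed below 0 under each of the 4 other scalings tried. Il2ra (-0.74, 1.67-fold), Nrp1 (-0.64, 1.56-fold) and Ikzf4 (-0.62, 1.54-fold) were at least 1.5-fold lower by this measure, which 4.08% of expressed genes were. Lrrc32 and Gpr83 had values of -0.49 each (1.40-fold), Foxp3 of -0.47 and Ctla4 of -0.41. The same value is also the population difference in knockout mice minus that in control mice. With 1 array in each of the 4 groups, a shift of a single array cannot be told apart from an effect of genotype that depends on the population.

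**Figure D3:**
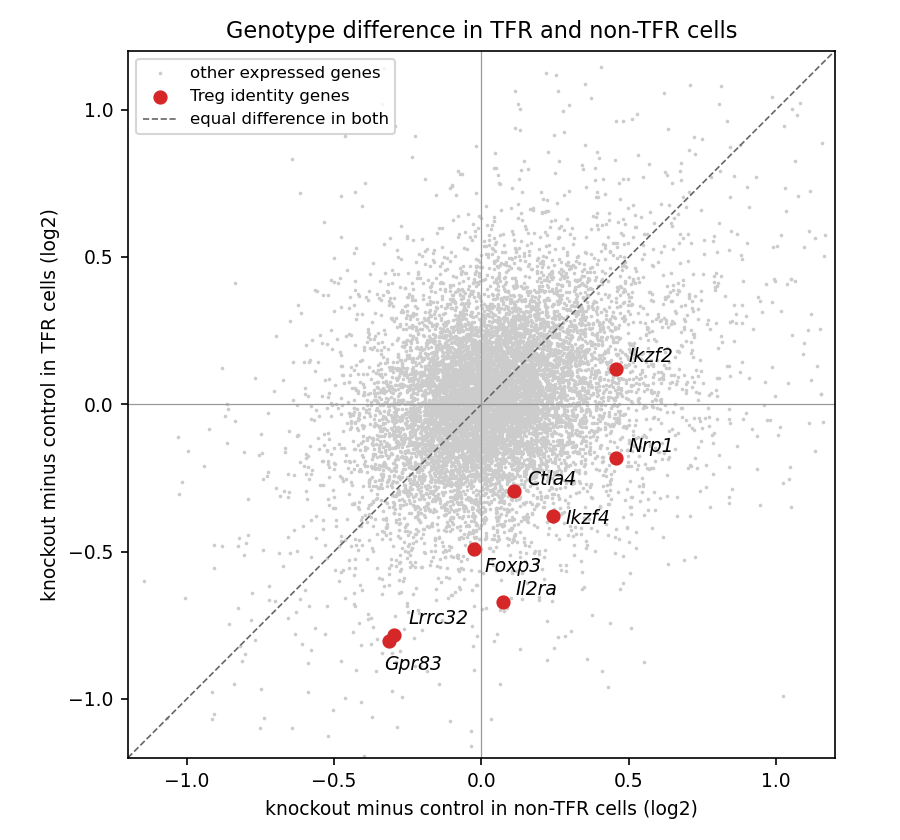
Knockout minus control log2 difference in TFR cells (vertical axis) against that in non-TFR cells (horizontal axis), for the 8 Treg identity genes (red) and the other expressed genes (grey; 76 of 11090 lie outside the axes). All 8 red points lie below the dashed line of equal differences, from Ikzf2 at 0.46 and 0.12 to Gpr83 at -0.31 and -0.80.

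Other genes of the Treg programme were taken from lists that overlap in part and were chosen with earlier results of these data known. They are given by their counts and medians beside those of the expressed genes above. The Ikaros family list also holds the identity genes Ikzf2 and Ikzf4, and the CTLA-4 list holds Ctla4, so these enter the list medians. Of 27 other Treg signature genes, 19 were higher and 8 lower in TFR cells than in non-TFR cells of control mice. The median was 0.58, and 47.5% of expressed genes were lower. At least 2-fold higher were 5 genes (4.13% of expressed genes were). These were the inhibitory receptors Tigit (1.87) and Lag3 (1.41), the enkephalin precursor gene Penk (1.41), the cytokine subunit gene Ebi3 (1.25) and the costimulatory receptor Icos (1.13), while Ecm1 (-1.16), a secreted matrix protein, and the cytokine signalling inhibitor Socs2 (-1.02) were at least 2-fold lower. In knockout mice 13 were higher and 14 lower, against 48.4% of expressed genes that were lower. The median was -0.007, which turned to 0.135 as deposited, 0.120 centred on T cell markers and 0.017 with cyclic loess. There the integrin chain Itgae (-1.43), Ecm1 (-1.51), Socs2 (-1.39) and the transcription factor Gata1 (-1.07) were at least 2-fold lower, and Tigit was 1.59 higher.

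Between genotypes most of the other Treg signature genes were lower in the knockout among TFR cells and higher in it among non-TFR cells. In TFR cells 18 of 27 were lower in the knockout, against 46.1% of expressed genes, with a median of -0.16. In non-TFR cells 20 of 27 were higher and 7 lower, against 44.2% of expressed genes that were lower, with a median of 0.31. Only Ecm1 (-1.10) was 2-fold lower in the first (0.234% of expressed genes were) and only Lag3 (1.27) 2-fold higher in the second (0.775%). The genotype difference in TFR minus that in non-TFR cells was below 0 for 25 of the 27, against 52.4% of expressed genes, with a median of -0.35 and 25 to 26 genes below 0 across scalings. The exceptions, named after their values were seen, were the interleukin-2 receptor chain Il2rb (0.029) and the G protein-coupled receptor Gpr15 (0.30). The 8 measured T cell markers had a median of 0.015 in this measure, with 3 below 0. Genes outside the Treg signature were also below 0, among them 11 of 17 Foxp3 partners and cofactors (median -0.25). So were 6 of 9 genes listed as repressed by Foxp3 (-0.26) and all 3 measured markers of conventional CD4 T cells (-0.37). The Ikaros family (0.11) and the neuropilins and semaphorin partners (0.21) had medians above 0.

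Between genotypes in TFR cells, the interleukin-2 receptor and STAT5 pathway gave Il2ra few companions. Of 11 measured genes of this list, 8 were lower in knockout TFR cells, with a median of -0.030. Most were near 0, but Cish, a STAT5-induced inhibitor of cytokine signalling, was at 11.33 (control) and 10.27 (knockout) in TFR cells and 11.29 (control) and 11.32 (knockout) in non-TFR cells. The knockout TFR array alone was low for Cish, by -1.07 against the control TFR array, which was the only 2-fold difference of the list in that comparison. Socs2, also induced by STAT5, was at 7.39 (control) and 6.75 (knockout) in TFR cells and 8.41 (control) and 8.14 (knockout) in non-TFR cells, lower in both TFR arrays as Il2ra was. Socs1 and Socs3 were lower in TFR cells than in non-TFR cells of both genotypes (-0.71 and -0.59 in the control, -0.80 and -0.77 in the knockout) and differed between genotypes in TFR cells by -0.009 and -0.008. In non-TFR cells the list had a median of -0.004, with a sign that depended on scaling. Between the populations, 6 of the 11 genes were lower on the TFR array and 5 higher, in control and knockout mice alike. At least 1.5-fold lower were 4 in control mice, against 5.76% of expressed genes, and 4 in the knockout, against 6.2%. At least 1.5-fold higher were 1 (10.3%) and 0 (8.54%). The medians were -0.050, with a sign that depended on scaling, and -0.39.

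Of 17 measured partners and cofactors of Foxp3, 10 were lower in knockout than in control TFR cells (median -0.10, none 2-fold apart), against 46.1% of expressed genes. In non-TFR cells 6 of 17 were lower, against 44.2%, with a median of 0.044. Hif1a, the hypoxia-inducible transcription factor, was 0.84 higher in knockout than in control TFR cells and 1.17 higher than in knockout non-TFR cells. The list was higher in TFR cells than in non-TFR cells of both genotypes (13 and 12 of 17, medians 0.26 and 0.21). The other 4 and 5 were lower, against 47.5% and 48.4% of expressed genes. Ezh2, a histone methyltransferase, was 1.29 higher in TFR cells for the control and 0.98 for the knockout. Nfatc1, a calcium-regulated partner of Foxp3, was 0.90 higher in TFR cells for the control and 0.25 for the knockout, and Runx3 differed by -0.40 and -0.81.

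Regulators of the Foxp3 gene and protein were lower in knockout TFR cells in 17 of 18 cases, with a median of -0.25, against 46.1% of expressed genes. None was 2-fold lower. The lowest were the transcriptional repressor Bach2 (-0.996), the T cell receptor-induced nuclear receptors Nr4a1 (-0.98) and Nr4a3 (-0.76, named after its value was seen) and the chromatin organizer Satb1 (-0.68). In non-TFR cells 12 of 18 were lower, against 44.2% of expressed genes, with a median of -0.21. The difference of the genotype differences had a median of -0.14 for this list. Between the populations, 12 of the 18 were lower in TFR cells of control mice (median -0.14), against 47.5% of expressed genes. In the knockout 13 were lower (median -0.21), against 48.4%. Satb1 was at least 2-fold lower in both (-1.85 and -1.95), and Bach2 (-1.37) and Nr4a1 (-1.11) in the knockout. Uhrf1, which maintains DNA methylation in dividing cells, was 2.02 higher in TFR cells than in non-TFR cells of control mice and 1.10 higher in the knockout. Of 9 measured genes listed here as repressed by Foxp3, only 6 had a mean above the expression limit. Whether Foxp3 represses each of them was not tested. In knockout TFR cells 6 of the 9 were lower (median -0.19), against 46.1% of expressed genes. Those lower genes include Il2 (-0.082) and Il17a (-0.19), whose means lay below the limit. Only Il4 was 2-fold higher in knockout TFR cells, at 1.51. It was also 1.71 (control) and 2.74 (knockout) higher in the TFR array of each genotype, and its levels in non-TFR cells, 5.41 and 5.88, lay below the expression limit. Dusp4, a MAP kinase phosphatase also counted in this list, differed by -0.89 between knockout and control TFR cells (10.72 and 11.61 in level).

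The partners of the surface molecules varied gene by gene. In the Ikaros family Ikzf1 and Ikzf3 were lower in TFR cells than in non-TFR cells of control mice (-0.61 and -0.41), opposite to Ikzf2, and differed between genotypes in TFR cells by -0.11 and 0.006. In the CTLA-4 axis Cd86, a ligand of CTLA-4, was at 9.75 (control) and 8.88 (knockout) in TFR cells and 9.50 (control) and 9.86 (knockout) in non-TFR cells, with the knockout TFR array the lowest. The other ligand, Cd80 (named after its values were seen), differed in the opposite direction, at 7.64 (control) and 8.40 (knockout) in TFR cells and 7.23 (control) and 7.72 (knockout) in non-TFR cells. Icos was higher in TFR cells and in the knockout (9.97 and 10.25 in TFR, 8.85 and 9.47 in non-TFR cells, control first), Lrba, which protects CTLA-4 from degradation, was 0.36 higher in knockout TFR cells, and Trat1, an adaptor of the T cell receptor complex, was lower in TFR cells than in non-TFR cells (-0.83 in the control and -1.02 in the knockout).

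Among the genes of latent TGF-beta activation, the integrin chains Itgb8 and Itgav, which release active TGF-beta, did not follow Lrrc32. Itgb8 was 0.61 higher in knockout TFR cells and 0.65 higher in knockout non-TFR cells, and Itgav was 0.14 and 0.40 higher. Nrros, which anchors latent TGF-beta in myeloid cells, was -0.27 and -0.23 apart, and the receptor gene Tgfbr2 0.070 and -0.16. The median of the 9 genes in TFR cells, -0.017, had a sign that depended on scaling. Among semaphorin partners Plxnb2, a plexin, was 1.08 higher in knockout than in control TFR cells and 0.81 higher in knockout non-TFR cells, and it was 1.40 and 1.66 higher in the TFR array of the control and the knockout, while its levels in non-TFR cells (5.91 and 6.72) were close to the expression limit. The plexin Plxnd1 was -0.49 and -0.42 apart. Sema4a, which encodes a ligand of neuropilin-1, was at 6.61 (control) and 6.57 (knockout) in TFR cells and 7.35 (control) and 6.80 (knockout) in non-TFR cells, highest in the array where Nrp1 was lowest. Vegfa differed by 0.092 and -0.12, and Nrp2, whose mean lay below the expression limit, was -1.13 apart between the control populations.

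**Figure D4:**
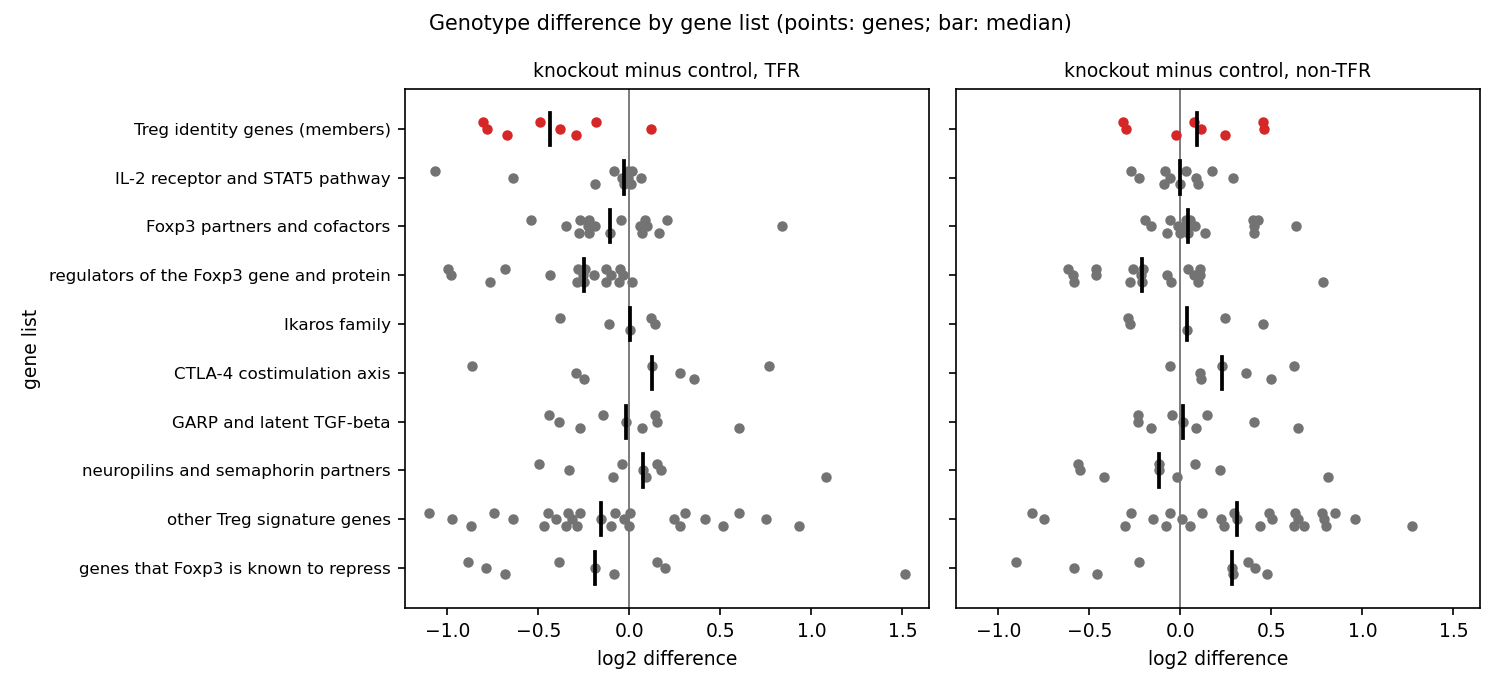
Knockout minus control log2 difference (horizontal axis) of each measured gene (points) and the median (bars) of the 8 Treg identity genes (red) and 9 gene lists (grey, vertical axis), in TFR cells on the left and non-TFR cells on the right. The identity genes have medians of -0.44 and 0.092, the other Treg signature genes of -0.16 and 0.31 and the regulators of Foxp3 of -0.25 and -0.21. Ikzf2, Ikzf4 and Ctla4 appear both in red and in grey.

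The expressed genes with the most similar patterns were found for the 7 genes that spanned at least 0.5, by the root mean square distance of the 4 levels after each gene's own mean was subtracted. For Foxp3 they were Dennd5a (distance 0.002), the ribosomal protein gene Rps24 (0.004) and the histone chaperone gene Daxx (0.022), and 229 genes lay within 0.1. For Ikzf2 they were Cep128 (0.009), Cd200r1 (0.012) and Rad50 (0.014), for Ikzf4 Spry4 (0.030), Gpr65 (0.033) and Manbal (0.035), and for Nrp1 Mob1b (0.016), Prkca (0.022) and Bcam (0.023), with 263, 210 and 235 genes within 0.1. Each of these 4 identity genes therefore had at least 210 of the 11090 expressed genes within 0.1 of its pattern. Lrrc32, with a span (0.86) close to that of Ikzf2 (0.82), had fewer neighbours. For Lrrc32 24 genes lay within 0.1, the nearest being Nr4a3 (0.048), Rasgrf2 (0.052) and Rara (0.054). Gpr83 had 11, led by Plcxd2 (0.045), Gpr34 (0.057) and Snx18 (0.061), and Il2ra had 5, led by Gm1966 (0.061), Mir505 (0.078) and Zfp984 (0.080). Among the 8 genes themselves the closest patterns were those of Foxp3 and Ikzf4 (0.10), Ctla4 and Nrp1 (0.14), Foxp3 and Lrrc32 (0.14) and Il2ra and Gpr83 (0.15), and the most distant were Ikzf2 and Gpr83 (0.85). All distances come from the same 4 arrays and describe these arrays alone.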

How the data were processed

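Total RNA of each sorted population was hybridized to 1 array, and samples were assigned to groups by title. The deposited log2 values, 1 per probe and array, were made by the authors. The submitters' processing notes name MAS5 without giving its role, so whether it made these values is unclear; the sources used here do not give the background correction or the summarization, and that the scale is log2 was read from the values. Deposited medians spanned 0.105, above a limit of 0.1, so all 41345 probes were quantile normalized with limma 3.58.1 in R 4.3.3. This removes a difference common to most genes, technical or real. Of these probes 23521 had 1 gene, 1814 had several and 16010 were unnamed in the platform annotation. The brightest probe stood for a gene. Expressed genes (11090) had a mean above the median of all genes, 5.91. Comparisons are log2 differences between 2 arrays, with no test, and 2-fold and 1.5-fold limits were counted. The number of arrays limits the precision. The steps were tested on simulated data. The genes named from the 9 lists were up to 4 per list with the largest difference, and any at least 2-fold apart. The members and lists were chosen with earlier results of these data known. List genes without a probe of their own, such as Il2rg, Jak3, Stub1 and Tcf7, were not analysed here. Promoter windows are RefSeq's, and no coordinates of probes are used.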

Additional observations from a re-analysis of the deposited data

Results flagged for a closer look

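For 4 of the 8 Treg identity genes the genotype difference had opposite signs in TFR and non-TFR cells, as it had for 40.3% of the 11090 expressed genes. Il2ra, Ikzf4, Ctla4 and Nrp1 were lower in the knockout among TFR cells and higher in the knockout among non-TFR cells, and the difference of these differences was -0.74, -0.62, -0.41 and -0.64. For Ikzf4, Ctla4 and Nrp1 the difference between TFR and non-TFR cells also had opposite signs in the 2 genotypes (3 of 8, against 23.5% of expressed genes), which is the same value (-0.62, -0.41 and -0.64) read the other way. With 1 array per group, these differences between populations or genotypes were not tested.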

How the results depend on the processing

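The median difference of the 8 genes and the difference of each gene were recomputed under cyclic loess, with values as deposited, centred on T cell markers or on the 75th percentile, and with all probes of a gene averaged (8 genes with 1 probe each, so no value changed). The medians were recomputed also without Foxp3, a choice made after seeing the data, and each moved by less than 0.1; that of TFR minus non-TFR in control mice turned from -0.031 to 0.013, and the other 4 kept their sign (-0.56 for the knockout populations, -0.38 for genotypes in TFR and 0.11 in non-TFR cells, -0.49 for the difference of differences). With no replicate spread, a move under 0.1 was taken as no change. Over the 4 scalings, 145 of 160 single-gene values moved by less than that and 2 turned sign, both of them Foxp3 in non-TFR cells. The median of TFR minus non-TFR in control mice, -0.031, moved to 0.073 as deposited. A limit of 1.5-fold in place of 2-fold raised the counts from 0 to 1 higher and 1 lower in that comparison and from 0 to 3 lower in knockout minus control TFR cells. As deposited, the median of expressed genes was 0.13 in the control and 0.14 in the knockout population comparison, against 0.021 and 0.014 after quantile normalization. In the knockout comparison of populations, 1.51% of genes above the 75th percentile were 2-fold higher, against 3.03% of expressed genes, and with no filter on dim genes 2.69% were 2-fold higher in the control comparison, against 4.13%. In the genotype comparisons the shares 2-fold higher in TFR cells (0.442%) and in non-TFR cells (0.775%) and 2-fold lower in non-TFR cells (0.126%) became 0.289%, 0.433% and 0.077% with no filter, and 0.144% and 0.018% for the first and last above the 75th percentile. No paired analysis was possible because each group has 1 array and the labels give no replicate numbers, and no replicate could be left out. The table gives no detection calls, so signal over background is unknown, although all 8 genes lay well inside the brighter part of the arrays.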

Other observations

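A second probe that covers Foxp3 is shared with its neighbours Ccdc22 and Ppp1r3f in the platform annotation and was therefore not used for Foxp3. Its levels were 7.39 (control) and 7.43 (knockout) in TFR cells and 7.69 (control) and 7.71 (knockout) in non-TFR cells. Both TFR arrays were lower than both non-TFR arrays on this probe, and the knockout TFR array was not the lowest, unlike on the Foxp3 probe.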
